A study of Mus musculus with 4 samples.

Results

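Replication-dependent histone genes were followed in resting and LPS-activated splenic B cells of ΔleftPAL and ΔIRIS mice. They were taken as every gene of the deposited gene count table whose symbol begins with Hist1h, Hist2h, Hist3h or Hist4h, which gave 70 of 41342 named genes. These comprise 6 genes of the linker histone H1, 20 of H2A, 19 of H2B, 12 of H3 and 13 of H4. The symbols name gene clusters, with 56 Hist1 genes on chromosome 13, 10 Hist2 genes on chromosome 3, 3 Hist3 genes on chromosome 11 and 1 Hist4 gene on chromosome 6 (mm10).

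Histones H2A, H2B, H3 and H4 form the nucleosome core around which DNA is wrapped, and H1 binds the linker DNA between nucleosomes. Most replication-dependent histone genes lack introns, and their mRNAs accumulate in S phase, when new DNA has to be packed. These mRNAs generally end just after a short stem-loop that is bound by the stem-loop binding protein SLBP, without a poly(A) tail. Bacterial lipopolysaccharide (LPS) is a mitogen for mouse B cells, in which it drives division and, in some cells, differentiation to antibody secretion.

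Both genotypes are homozygous changes of the 3′ regulatory region of the immunoglobulin heavy chain locus (IgH) in mice of strain 129, aged 8 to 12 weeks. In ΔleftPAL mice the fragment from enhancer hs3a through the IRIS sequence to enhancer hs1,2 is deleted. In ΔIRIS mice the IRIS sequence is deleted and hs3a is inverted, with all enhancers kept. Resting cells were CD43-depleted splenic B cells taken directly after purification, and LPS-activated cells had spent 48 h in culture with 5 µg/ml LPS and passed a further density gradient, so that LPS, time in culture and the gradient cannot be told apart. No other genotype was analysed here, so both groups carry a mutated regulatory region. There were 4 libraries, 1 for each genotype and state, and the labels give each as RNA from B cells pooled from 4 animals. The study's text describes the pooling in other terms, and the number of animals behind a library is not settled. With 1 library per group no difference has a replicate check and no p-value is given. Brackets hold 95% exact Clopper-Pearson intervals that cover counting error only and compare libraries, not conditions. Amplified fragments without molecular identifiers are not independent molecules.

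The 3′ stem-loop was searched in GENCODE M21 transcripts (GRCm38), matched to the members by position and strand, on the transcript strand only, as the histone stem-loop consensus of 16 bases with 5 positions left free (4 in the stem and 1 in the loop). It was present in the models of 44 of 70 members, against 0.0885% of 58725 protein-coding transcripts of genes outside the set. All 33 sites in H1, H2A, H2B and H3 models began with GGCTC, whereas the 11 sites in H4 models began with GGCCC in 9 genes and with GGTCC in 2. The following sites are shown because they are the forms found in the genes with the most reads, the largest responses or the largest genotype differences, with the stem-loop in capitals and 5 flanking bases on each side.
Hist1h1c, H1, chr13:23739507-23739532, plus strand: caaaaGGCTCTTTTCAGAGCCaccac
Hist2h2aa1, H2A, chr3:96239779-96239804, minus strand: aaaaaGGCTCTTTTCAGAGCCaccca
Hist1h2bb, H2B, chr13:23747198-23747223, plus strand: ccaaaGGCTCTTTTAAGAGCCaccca
Hist1h3f, H3, chr13:23544927-23544952, plus strand: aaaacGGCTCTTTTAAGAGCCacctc
Hist1h4d, H4, chr13:23581945-23581970, plus strand: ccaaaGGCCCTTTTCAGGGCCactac
Hist1h4i, H4, chr13:22040961-22040986, minus strand: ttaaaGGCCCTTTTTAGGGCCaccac
Hist1h4b, H4, chr13:23757361-23757386, plus strand: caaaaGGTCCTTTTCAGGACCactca
Where no match was found, as for Hist1h1b and Hist2h2be, these letters are not in the annotated model. For many members the model holds little sequence past the stop codon, but that of Hist2h2be is 2620 bases long.

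Counts of fragments in named genes ranged from 23615496 to 29776108 per library. All 6 B cell markers were measured in every library, with a summed level of 3855 and 3269 counts per 1000000 counts of effective library size (CPM) in resting ΔleftPAL and ΔIRIS cells and of 2303 and 2464 CPM after LPS. Erythroid markers (globins, Alas2 and Klf1) summed to 37604 and 26354 CPM at rest and to 53.9 and 113 CPM after LPS, in the same order. Myeloid markers summed to 288 and 385 CPM at rest and to 6.79 and 16 CPM after LPS. Most of the sum after LPS was Itgam, at 5.20 CPM in ΔleftPAL and 15.4 CPM in ΔIRIS cells, from 13.1 and 10.5 CPM at rest. Lyz2 and Csf1r were each at most 1.30 CPM after LPS and lower in ΔIRIS cells, and Ly6g, S100a8 and S100a9 were at 0. T cell markers summed to at most 26.5 CPM and NK cell markers to at most 3.15 CPM in any library. The part of other cells in the results that follow was not tested. In bulk RNA, more cells that express a gene and more RNA of that gene per cell cannot be told apart.

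LPS-activated cells held far more histone reads than resting cells. In ΔleftPAL cells the members took 0.349% of all fragments at rest and 1.78% after LPS, a 5.45-fold higher level (log2 ratio 2.45 [2.44, 2.46]). In ΔIRIS cells they took 0.268% at rest and 1.76% after LPS, a 6.75-fold higher level (log2 ratio 2.75 [2.74, 2.77]). Genes were kept where the mean count of all 4 libraries reached 50, which left 65 of 70 members. On a scale of log2(CPM + 0.5), 63 of these 65 members were at least 2-fold higher after LPS in ΔleftPAL cells, against 20.1% of the 11286 genes tested. The count was 63 of 65 in ΔIRIS cells too, against 21.6% of all genes tested. In each genotype 1 member, Hist3h2a, was at least 2-fold lower, against 15.5% of all genes in ΔleftPAL cells and 17.3% in ΔIRIS cells, and 1 member, Hist2h2be, stayed within 2-fold. The median member log2 ratio was 2.52 in ΔleftPAL and 2.79 in ΔIRIS cells, beside 0.12 and 0.13 for all genes tested.

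**Figure D1:**
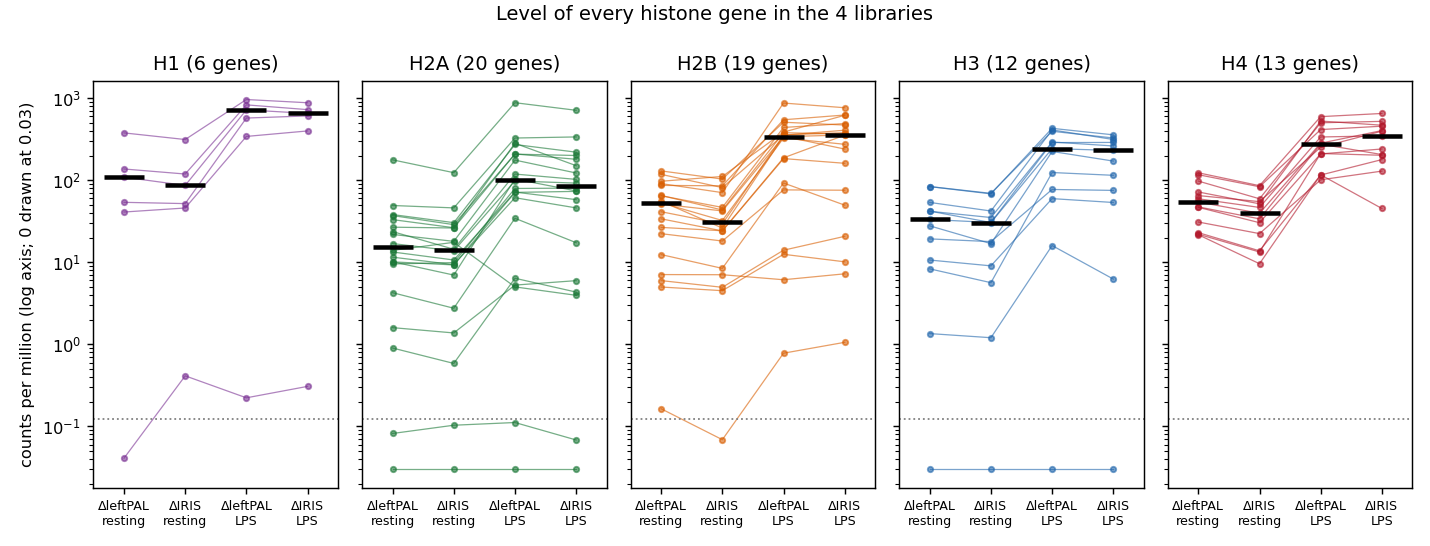
Level of each of the 70 histone genes in CPM (log axis, values of 0 drawn at 0.03) in the 4 libraries, by family. Lines join the values of a gene, black bars are medians over the 65 members kept, and the dotted line marks the level of 3 counts in the shallowest library; nearly every line is higher in the LPS libraries.

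There were 5 members that did not pass the filter on gene counts. Hist1h1t, a testis-specific H1, had 1, 6, 12 and 9 counts in resting ΔleftPAL, LPS-activated ΔleftPAL, resting ΔIRIS and LPS-activated ΔIRIS cells. Hist1h2ba, a testis-specific H2B, had 4, 21, 2 and 31 counts in the same order. Its testis-specific H2A neighbour Hist1h2aa was at 0 in all 4 libraries, which allows a level of up to 0.102 to 0.123 CPM depending on the library. Hist2h3c1 also had no counts and Hist2h2aa2 had 2 or 3 in each library. Both overlap another annotated gene, Gm20634, on the same strand, and fragments that overlap more than 1 gene are left out by the counting program unless it is told otherwise. Hist2h2aa2 was given 1977 to 13139 fragments per library in the authors' transcript-level estimates, which also share fragments between it and its near-identical copy Hist2h2aa1. Hist2h3c1 was given 58 to 140 fragments. The levels of both are therefore uncertain.

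Linker histones were led by Hist1h1c, which encodes H1.2 and had the most reads of all 70 members. Its level was 378 CPM at rest and 964 CPM after LPS in ΔleftPAL cells, and 314 and 880 CPM in ΔIRIS cells. This was the smallest response in the family, with log2 ratios of 1.35 [1.32, 1.39] and 1.49 [1.45, 1.52]. Hist1h1b, which encodes H1.5, went from 53.8 to 573 CPM in ΔleftPAL and from 51.9 to 608 CPM in ΔIRIS cells, the largest response in the family, with log2 ratios of 3.41 [3.33, 3.49] and 3.55 [3.47, 3.63]. Hist1h1e (H1.4) and Hist1h1d (H1.3) lay between them, with log2 ratios of 2.60 and 2.73 in ΔleftPAL and of 2.61 and 2.92 in ΔIRIS cells. Hist1h1a (H1.1) was at 41.0 and 342 CPM in ΔleftPAL and at 45.9 and 399 CPM in ΔIRIS cells. Thus the share of Hist1h1c in the reads of its family was smaller in the LPS libraries, in which the other 4 expressed H1 genes came closer to it.

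Among H2A genes, which encode core proteins paired with H2B in the nucleosome, Hist2h2aa1 had the most reads. It went from 177 to 881 CPM in ΔleftPAL cells and from 124 to 712 CPM in ΔIRIS cells, with log2 ratios of 2.31 [2.27, 2.36] and 2.53 [2.47, 2.58]. Hist1h2ap followed at 49.2 and 327 CPM in ΔleftPAL and at 46.0 and 337 CPM in ΔIRIS cells. Hist1h2ak was at 38.2 and 273 CPM and at 30.4 and 220 CPM. The highest H2A response belonged to Hist1h2ah, with log2 ratios of 3.35 [3.16, 3.54] and 3.41 [3.20, 3.62] from levels of 10.2 and 6.98 CPM at rest.

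Hist3h2a went the other way in the gene counts, from 14.0 to 5.01 CPM in ΔleftPAL and from 17.5 to 3.96 CPM in ΔIRIS cells, with log2 ratios of -1.48 [-1.78, -1.19] and -2.15 [-2.45, -1.85]. Its locus overlaps Trim17 on the same strand. The authors' kallisto estimates gave it 1623 fragments at rest and 5541 after LPS in ΔleftPAL cells, and 2158 and 5593 in ΔIRIS cells, against gene counts of 341, 135, 509 and 116. By those estimates Hist3h2a was higher after LPS, with log2 ratios of 1.75 and 1.52, so its direction depended on how the fragments were assigned.

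For H2B, Hist2h2bb had the most reads, at 91.0 and 873 CPM in ΔleftPAL and at 70.6 and 765 CPM in ΔIRIS cells, with log2 ratios of 3.26 [3.20, 3.33] and 3.44 [3.37, 3.5]. Hist1h2bb was at 86.5 and 546 CPM and at 85.5 and 624 CPM. Hist1h2bn was at 97.2 and 386 CPM and at 111 and 619 CPM. The highest mean response in the family was that of Hist1h2bj, from 41.3 to 354 CPM in ΔleftPAL and from 29.4 to 407 CPM in ΔIRIS cells.

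Hist2h2be was the exception, with 7.08 and 6.12 CPM in ΔleftPAL and 7.05 and 7.23 CPM in ΔIRIS cells. Its log2 ratios, -0.21 [-0.53, 0.11] and 0.04 [-0.25, 0.32], had intervals that included 0 in each genotype. No difference was therefore detectable for this gene at this depth. Its divergent neighbour Hist2h2ac, an H2A gene whose start lies 238 bases away, was at 37.1 and 208 CPM in ΔleftPAL and at 28.8 and 200 CPM in ΔIRIS cells.

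By gene counts, H3 genes ranged from 1.20 to 429 CPM among the 11 that passed the filter. The lowest value was that of Hist2h3c2 in resting ΔIRIS cells, where kallisto gave it 725 fragments against 35 gene counts. Hist1h3f was at 83.6 and 429 CPM in ΔleftPAL and at 68.2 and 358 CPM in ΔIRIS cells, Hist1h3e at 83.8 and 395 CPM and at 69.2 and 327 CPM, and Hist1h3h at 53.6 and 411 CPM and at 42.2 and 314 CPM. The highest response of all 65 members was that of Hist1h3g, which was at only 8.31 and 5.64 CPM at rest and at 124 and 115 CPM after LPS, with log2 ratios of 3.90 [3.70, 4.11] and 4.35 [4.12, 4.58]. The smallest H3 response, that of Hist1h3d, still came to 2.00 [1.86, 2.15] and 2.07 [1.94, 2.22].

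H4 genes encode a nearly invariant protein. The ratio of kallisto estimate to gene count was 1.00 for Hist1h4d in each library, but 0.42 to 0.51 for Hist1h4k. Hist1h4d had the most reads, at 123 and 596 CPM in ΔleftPAL and at 85.9 and 651 CPM in ΔIRIS cells, with log2 ratios of 2.27 [2.22, 2.33] and 2.92 [2.86, 2.98]. Hist1h4h was at 97.6 and 502 CPM and at 59.4 and 522 CPM. Hist1h4k was at 71.9 and 526 CPM and at 51.6 and 469 CPM. The highest response was that of Hist1h4b, with log2 ratios of 3.27 [3.14, 3.40] and 3.92 [3.77, 4.07], and the lowest mean response over both genotypes was that of Hist2h4, with 1.71 [1.59, 1.83] and 2.53 [2.41, 2.65]. In ΔIRIS cells alone, Hist1h4i, with 2.24, and Hist1h4c, with 2.45, were lower. All 13 H4 genes were at least 2-fold higher after LPS in each genotype, against 20.1% and 21.6% of all genes tested.

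**Figure D2:**
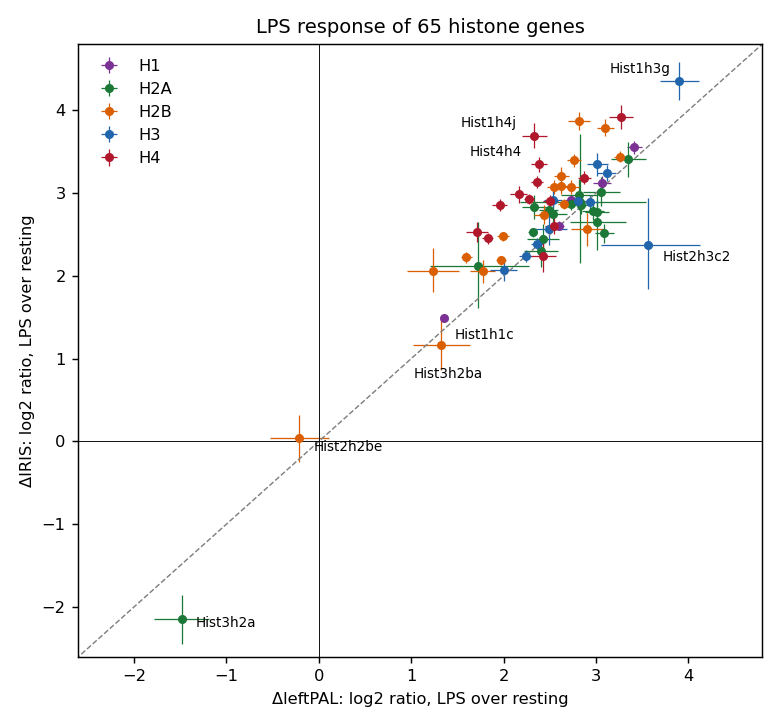
Log2 ratio of CPM after LPS over CPM at rest for the 65 members kept, in ΔleftPAL (x axis) and ΔIRIS (y axis) cells, coloured by family, with 95% exact intervals for counting error as bars and the line of equal response dashed. Most points sit between 1 and 4 on each axis, many H4 and H2B genes lie above the dashed line, and Hist3h2a and Hist2h2be stand apart.

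Per kilobase of gene model, H4 and H2B took the largest shares of the summed member level in each library. The models ran from 312 to 4374 bases and need not match the transcripts, which limits such comparisons between genes. H4 took 30.0% at rest and 27.0% after LPS in ΔleftPAL cells, and 26.7% and 28.8% in ΔIRIS cells. H2B took 26.9% and 26.3% in ΔleftPAL and 29.0% and 30.1% in ΔIRIS cells. H2A took 16.7% to 20.3%, H3 took 12.1% to 14.1% and H1 took 12% to 13.8%. With the authors' kallisto levels scaled to transcript length (TPM), H2A took 17.7% to 21.6%, H3 11.7% to 15.2% and H1 9.42% to 10.8%. H4 and H2B kept the largest shares there. The composition of the pool by family thus differed by at most a few percent of the total between libraries, while its size differed more than 5-fold. By gene counts, the highest single level per kilobase at rest was 336 CPM per kb for Hist2h2aa1 in ΔleftPAL and 292 for Hist1h2bn in ΔIRIS cells. After LPS it was 1687 CPM per kb for Hist1h4k in ΔleftPAL and 1657 CPM per kb for Hist1h4d in ΔIRIS cells. These ranks depended on the counting. Kallisto gave Hist1h4k 6155 fragments against 14182 gene counts in LPS-activated ΔleftPAL cells. It gave Hist1h2bn 1982 against 3233 in resting ΔIRIS cells.

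The clusters were compared by count. Of the 53 Hist1 genes that passed the filter, 53 were at least 2-fold higher after LPS in each genotype, and of the 12 others, 10 were, against 20.1% of all genes tested in ΔleftPAL and 21.6% in ΔIRIS cells. Low responses were seen in the Hist3 cluster. Hist3h2ba went from 4.99 to 12.5 CPM in ΔleftPAL and from 4.51 to 10.1 CPM in ΔIRIS cells. The pseudogene Hist3h2bb-ps went from 5.98 to 14.0 CPM and from 4.95 to 20.7 CPM. Both fall outside the rule for named genes and were chosen after their values were seen. The remaining gene of the cluster is Hist3h2a, for which the 2 ways of counting disagreed.

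The annotated 3′ ends of the members differed. In 15 members, 13 of which passed the filter, a GENCODE M21 model had the letters AATAAA, the usual poly(A) signal, within its last 50 bases. Hist1h1c, Hist3h2a, Hist2h2be and Hist2h4, which had the lowest mean responses over both genotypes of H1, H2A, H2B and H4, were among them, and so were Hist3h2ba and Hist4h4. Hist1h4i and Hist1h4c, the lowest H4 genes in ΔIRIS cells, were not, nor was Hist1h3d, the lowest H3 gene. The median log2 ratio after LPS was 2.31 in ΔleftPAL and 2.49 in ΔIRIS cells over these 13 members, beside 2.63 and 2.85 over the other 52. These medians are on the log2(CPM + 0.5) scale. There, a response under a log2 ratio of 2 in both genotypes was seen in 4 of the 13 and in 2 of the 52. Without the added 0.5, these 2, Hist2h2ab and Hist3h2bb-ps, had log2 ratios of 2.12 and 2.06 in ΔIRIS cells. These values are a description, since the response was known when this feature was examined. A model end was taken from the annotation, and the 3′ ends of the transcripts in these libraries were not measured.

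Many H2A and H2B genes lie head to head. There were 14 pairs with starts within 500 bases of each other on opposite strands, and in all 14 an H2A gene faced an H2B gene, with 172 to 305 bases between the gene models. H2B was above H2A in the LPS response in 6 of 14 pairs in ΔleftPAL and in 8 of 14 in ΔIRIS cells, with the testis-specific pair Hist1h2ba and Hist1h2aa, which did not pass the filter, included. In the pair Hist1h2ag and Hist1h2bj the log2 ratios on the log2(CPM + 0.5) scale were 2.75 and 3.09 in ΔleftPAL and 2.91 and 3.77 in ΔIRIS cells. In the pair Hist1h2ah and Hist1h2bk they were 3.29 and 2.76 in ΔleftPAL and 3.32 and 3.38 in ΔIRIS cells. The pairs Hist2h2ac with Hist2h2be and Hist3h2bb-ps with Hist3h2a were the only ones with a partner that passed the filter and was not at least 2-fold higher.

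Promoter sequence was available for 60 of 70 members in the RefSeq table (GRCm38.p6). The 250 bases before the start were searched on both strands for the octamer ATTTGCAT, the CCAAT box and the H1 box AAACACA, and on the gene strand for the TATA box TATAAA. The octamer was present in 7 of 16 H2A and 6 of 16 H2B promoters and in none of the 28 of H1, H3 and H4, against 1.6% of 32851 promoters. A CCAAT box was present in all 6 H1, 16 H2A and 16 H2B promoters, in 8 of 10 H3 promoters and in 3 of 12 H4 promoters, against 33.8% of all promoters. The H1 box was in 5 of 6 H1 promoters, and in 2 of 16 H2A and 2 of 16 H2B promoters, against 6.25% of all. TATAAA was in 24 of 60, against 7.59% of all. These letters are matches in sequence and no binding was measured. The windows of head-to-head H2A and H2B genes overlap, so 1 site can be counted for both genes and these counts are not independent. Both partners had an octamer in the pairs Hist1h2ae with Hist1h2bg, Hist1h2ah with Hist1h2bk, and Hist1h2aa with Hist1h2ba. Whether the site was the same was not checked. The 200 bases before the start are printed for 5 members that lead their family by reads or response, with matches in capitals, none of which overlap.
Hist1h2bj, chr13:22042998-22043197, plus strand, lying wholly between this gene and Hist1h2ag: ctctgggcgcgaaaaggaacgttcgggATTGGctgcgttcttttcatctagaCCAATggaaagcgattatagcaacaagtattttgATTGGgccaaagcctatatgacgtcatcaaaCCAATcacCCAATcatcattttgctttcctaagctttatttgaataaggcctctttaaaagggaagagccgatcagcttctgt
Hist2h2bb, chr3:96269500-96269699, plus strand: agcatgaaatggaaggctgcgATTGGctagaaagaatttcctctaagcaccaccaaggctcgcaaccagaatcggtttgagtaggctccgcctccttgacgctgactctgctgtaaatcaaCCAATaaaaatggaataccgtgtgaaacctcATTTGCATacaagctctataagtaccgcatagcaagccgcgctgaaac
Hist1h1b, chr13:21780626-21780825, minus strand: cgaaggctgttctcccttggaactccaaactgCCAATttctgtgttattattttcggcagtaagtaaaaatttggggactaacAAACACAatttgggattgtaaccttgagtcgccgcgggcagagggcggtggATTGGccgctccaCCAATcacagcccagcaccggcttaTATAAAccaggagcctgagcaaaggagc
Hist1h3g, chr13:23535218-23535417, plus strand: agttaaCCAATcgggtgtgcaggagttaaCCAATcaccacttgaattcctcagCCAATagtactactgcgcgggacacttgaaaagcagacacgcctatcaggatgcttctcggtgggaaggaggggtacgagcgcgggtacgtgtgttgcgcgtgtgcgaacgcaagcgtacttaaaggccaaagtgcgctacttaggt
Hist1h4d, chr13:23581368-23581567, plus strand: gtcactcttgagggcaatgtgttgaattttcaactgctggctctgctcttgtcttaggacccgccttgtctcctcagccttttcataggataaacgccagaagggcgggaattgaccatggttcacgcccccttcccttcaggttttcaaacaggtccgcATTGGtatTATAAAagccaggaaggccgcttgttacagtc
The 5 H2B members with an octamer had a median log2 ratio of 2.76 in ΔleftPAL and 3.38 in ΔIRIS cells and the 10 without had 2.48 and 2.60, whereas the 6 H2A members with an octamer had 2.49 and 2.73 and the 9 without had 2.72 and 2.79.

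At rest, ΔIRIS cells had fewer histone reads than ΔleftPAL cells. The summed members were at 2648 CPM in ΔIRIS and at 3370 CPM in ΔleftPAL cells, a log2 ratio of -0.35 [-0.36, -0.33], and of -0.20 with kallisto estimates. Of 65 members, 61 were lower in ΔIRIS cells, beside 5637 of 11286 genes tested. Intervals lay below 0 for 46 members, against 27% of all genes tested, and above 0 for 3, against 30.3%. The median member log2 ratio was -0.33, beside 0.00019 for all genes tested. With kallisto estimates 51 were lower and 13 higher, with a median of -0.24. In all 13 H4 genes the interval lay below 0. None of the 65 was at least 2-fold higher, against 1.83% of all genes tested, and 2 were at least 2-fold lower, against 1.02%.

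Those 2 members were Hist1h4i and Hist1h2br. Hist1h4i, an H4 gene, was at 21.7 CPM in ΔleftPAL and at 9.60 CPM in ΔIRIS cells, with a log2 ratio of -1.17 [-1.39, -0.96]. Hist1h2br, an H2B gene, was at 55.5 and 26.1 CPM, with a log2 ratio of -1.09 [-1.22, -0.96] by gene counts. By kallisto estimates its log2 ratio was -0.34, so it was not 2-fold apart, and Hist1h4i was the only member called. Hist1h4j followed at 23.0 and 13.8 CPM, with -0.74 [-0.92, -0.55]. At the other end, Hist3h2a (0.33 [0.13, 0.53]), Hist1h2bn (0.19 [0.12, 0.27]) and Hist1h1a (0.16 [0.04, 0.28]) were slightly higher in ΔIRIS cells.

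Other measures also differed between the resting libraries. Erythroid markers summed to 37604 CPM in ΔleftPAL and to 26354 CPM in ΔIRIS cells, with 4 of 5 lower in ΔIRIS cells. RNAs that lack a poly(A) tail and are no histone mRNAs were lower in ΔIRIS cells for 3 of the 4 that passed the filter, among them Rn7sk, the 7SK RNA, at 35728 and 22810 CPM, and Rpph1, the RNA of RNase P, at 11092 and 6928 CPM. Genes of the S phase list, on the other hand, were higher in ΔIRIS cells in 15 of 20, with a median log2 ratio of 0.16. Of the 11286 genes tested, 5648 were higher and 5637 lower in resting ΔIRIS cells. The part of these marker and list differences in the histone difference was not tested.

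After LPS the summed members were at 17865 CPM in ΔIRIS and at 18369 CPM in ΔleftPAL cells, a log2 ratio of -0.040 [-0.046, -0.035], and 0.23 with kallisto estimates, so that the direction of this small difference depended on the counting. Of 65 members, 25 were higher and 40 lower in ΔIRIS cells, beside 6191 higher and 5044 lower of 11286 genes tested. The median member log2 ratio was -0.11, whereas kallisto estimates gave 41 members higher and 24 lower, with a median of 0.16. None was at least 2-fold higher, against 0.567% of all genes tested, and 2 were at least 2-fold lower, against 1.41%. With kallisto estimates 5 of 64 were at least 2-fold higher, namely Hist1h2bb, Hist1h2bj, Hist1h2bm, Hist1h4j and Hist1h4n, against 0.601% of all genes so estimated. By these estimates 4 were at least 2-fold lower, namely Hist1h2al, Hist1h2ao, Hist1h4i and Hist2h3c1, against 1.36%. Hist1h4i was again one of them, at 117 CPM in ΔleftPAL and 45.3 CPM in ΔIRIS cells, with a log2 ratio of -1.36 [-1.46, -1.27]. It is the only member that was at least 2-fold apart between the genotypes in each state, and kallisto estimates gave log2 ratios of -1.21 at rest and -1.40 after LPS. The other was Hist2h3c2, an H3 gene at 16 and 6.24 CPM by gene counts, with -1.36 [-1.61, -1.10] by gene counts and -0.03 by kallisto. Kallisto gave it 8455 and 8593 fragments in these libraries against gene counts of 431 and 183, so its level depended on the counting too.

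Hist1h2aj, an H2A gene, was at 34.4 CPM in ΔleftPAL and 17.3 CPM in ΔIRIS cells after LPS, with a log2 ratio of -0.99 [-1.15, -0.83] by gene counts, while kallisto gave it 3 and 4 fragments. In the opposite direction, Hist1h2bm was at 188 and 354 CPM (0.92 [0.87, 0.97]), Hist1h2bn at 386 and 619 CPM (0.68 [0.65, 0.72]) and Hist1h4m at 253 and 396 CPM (0.65 [0.61, 0.69]). Kallisto gave larger log2 ratios for Hist1h2bm, at 2.26, for Hist1h2bj, at 1.65 beside 0.20 by gene counts, and for Hist1h2bb, at 1.4 beside 0.19. For Hist1h2bn it gave 0.54. For Hist1h4m the counting methods disagreed, since kallisto gave it at most 7 fragments in any library against gene counts of 1589 to 11618. The cause was not tested. Hist1h2al, which lies outside the main chromosome 13 cluster and was singled out after its values were seen, had 7600 gene counts in LPS-activated ΔleftPAL and 4414 in ΔIRIS cells, and 1149 and 3 fragments by kallisto. Family sums also moved with the counting, as that of H2A after LPS, from a log2 ratio of -0.28 by gene counts to 0.016 by kallisto.

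**Figure D3:**
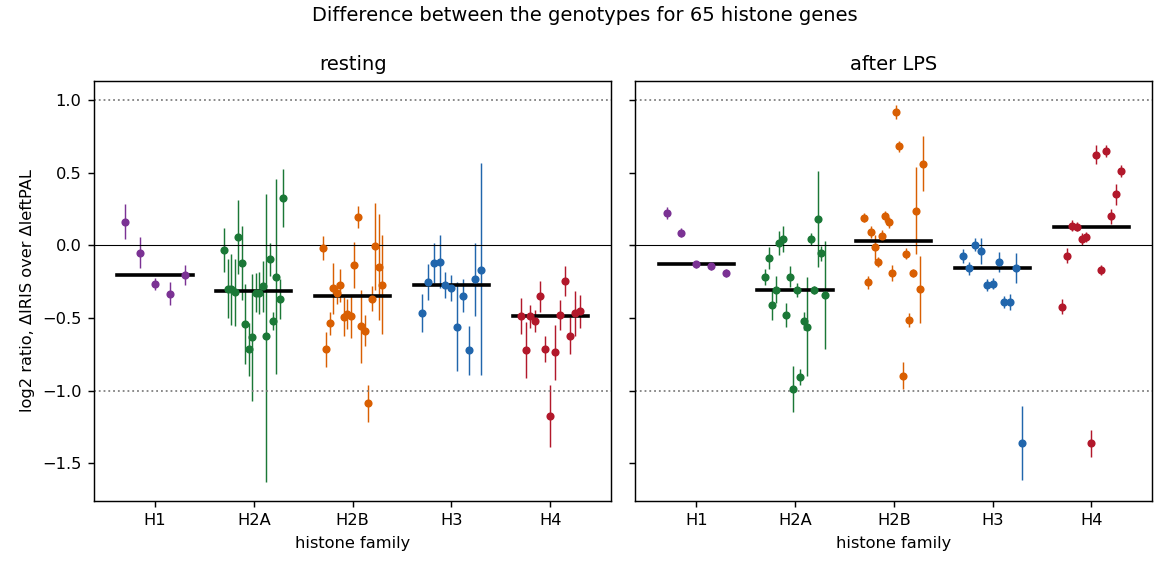
Log2 ratio of CPM, ΔIRIS over ΔleftPAL, for the 65 members kept, by family, at rest (left) and after LPS (right). Bars on points are 95% exact intervals for counting error, black bars are medians and dotted lines mark 2-fold; all 13 H4 genes lie below 0 at rest and 9 of 13 above 0 after LPS.

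The size of the LPS response in the 2 genotypes was compared by family. For the H4 sum the log2 ratio after LPS was 2.34 [2.31, 2.36] in ΔleftPAL and 2.96 [2.94, 2.99] in ΔIRIS cells, a difference of 0.63 [0.59, 0.66]. For the H2B sum it was 2.49 [2.47, 2.51] and 2.89 [2.87, 2.91], a difference of 0.40 [0.38, 0.43]. The differences for H1 (0.15 [0.12, 0.18]), H3 (0.096 [0.052, 0.14]) and H2A (0.055 [0.016, 0.095]) were smaller. These intervals of differences use a normal approximation on the counts and, like the others, hold no error between animals. Kallisto estimates gave differences of 0.76 for H4, 0.63 for H2B, 0.17 for H1, 0.21 for H3 and 0.24 for H2A.

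By gene, the interval of this difference lay above 0 in 36 of 65 members, below 0 in 6 and across 0 in 23. Of 11163 genes tested with counts in every library, it lay above 0 in 25% and below 0 in 24.6%. The count above 0 was 11 of 13 H4 genes, 15 of 18 H2B genes, 3 of 5 H1 genes, 4 of 18 H2A genes and 3 of 11 H3 genes. In 13 of 65 members the genotype ratio had an interval below 0 at rest and above 0 after LPS, against 5.43% of all genes tested, and in 0 it had the opposite pattern, against 5.18%. By gene counts Hist1h4j had the largest difference, with log2 ratios after LPS of 2.33 in ΔleftPAL and 3.69 in ΔIRIS cells. With kallisto these were 2.23 and 3.82, and those of Hist1h2bm, at 1.99 and 3.96, lay further apart. Hist4h4, the lone member on chromosome 6, named here for its position, was at 54.3 and 283 CPM in ΔleftPAL and at 39.6 and 403 CPM in ΔIRIS cells, with log2 ratios of 2.38 [2.30, 2.47] and 3.35 [3.26, 3.44]. Kallisto estimates gave 2.39 and 3.37 for this gene.

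**Figure D4:**
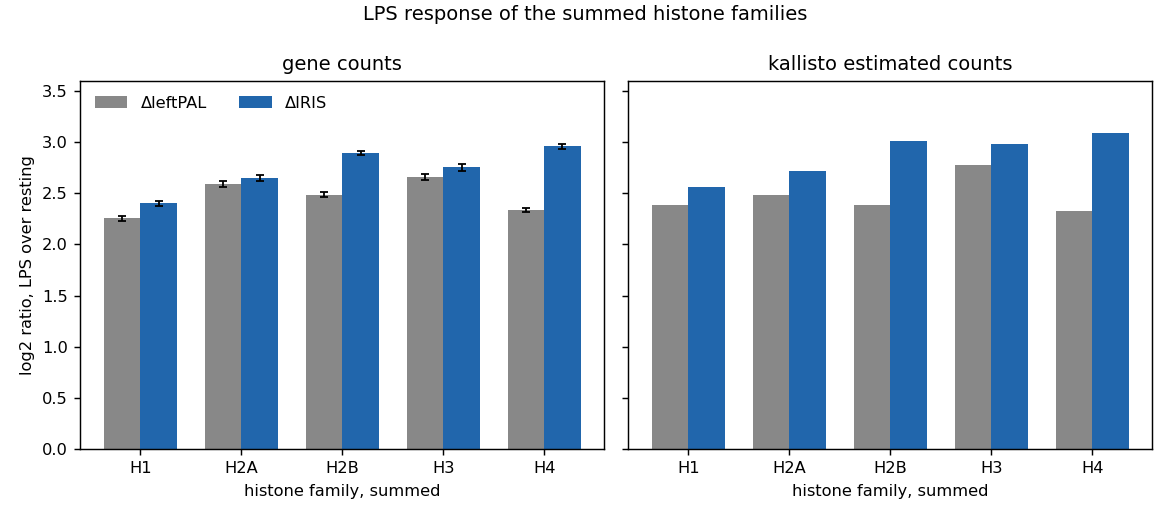
Log2 ratio after LPS over rest of the reads summed over each histone family, in ΔleftPAL (grey) and ΔIRIS (blue) cells, from gene counts (left, with 95% exact intervals for counting error) and from kallisto estimated counts (right, without intervals). The blue bar is higher than the grey one in every family, most for H4, by 0.63 with gene counts and 0.76 with kallisto.

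Over the 65 members the LPS responses of the genotypes had a Pearson r of 0.879 and a Spearman rho of 0.657. These describe members that share libraries and near-identical sequence, and they are no test. Hist3h2a, whose direction depended on the counting, and Hist2h2be lie far from the other members, and Pearson r is sensitive to such points.

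Genes around the histone pathway were compared as lists. In ΔleftPAL cells, 10 of 18 genes of histone 3′ end processing and supply were at least 2-fold higher after LPS, against 20.1% of all genes tested, with a median log2(CPM + 0.5) ratio of 1.11. In ΔIRIS cells 13 of 18 were, against 21.6%, with a median of 1.27. Slbp, the stem-loop binding protein, was at 49.9 and 158 CPM in ΔleftPAL and at 51.5 and 166 CPM in ΔIRIS cells. Snrpb, an Sm protein, had the most reads in this list, at 91.9 and 219 CPM and at 93 and 227 CPM, and Snrpf, another Sm protein, the highest response, with log2 ratios of 1.71 and 1.78. Lsm10, a subunit of the U7 particle that directs histone mRNA cleavage, had the lowest, with -0.21 and 0.40. Npat, which activates histone genes in S phase, was at 31.5 and 64.7 CPM and at 43.4 and 79.9 CPM. Rnu7, the U7 RNA, was at 0 in all libraries, and how well these libraries recover it was not tested. The counts therefore do not show that it was absent.

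Of 8 genes for histone mRNA decay, 1 was at least 2-fold higher and 2 at least 2-fold lower in each genotype, against 20.1% higher and 15.5% lower of all genes tested in ΔleftPAL and 21.6% and 17.3% in ΔIRIS cells. Eri1, a 3′ exonuclease that acts on histone mRNA ends, was the higher one, with log2 ratios of 1.43 in each. Zcchc6 and Zcchc11, uridyl transferases, were the lower ones, with -1.02 and -1.21 in ΔleftPAL and -1.29 and -1.22 in ΔIRIS cells.

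Histone chaperones were at least 2-fold higher in 12 of 16 genes in ΔleftPAL and 13 of 16 in ΔIRIS cells, against 20.1% and 21.6% of all genes tested, with medians of 1.5 and 1.64. Chaf1a, the large subunit of the assembly factor CAF-1, had the highest mean response, from 7.12 to 77 CPM in ΔleftPAL and from 9.22 to 84.2 CPM in ΔIRIS cells. Asf1b and Nasp, which carry H3 and H4, had log2 ratios of 3.01 and 2.34 in ΔleftPAL and of 3.15 and 2.03 in ΔIRIS cells. Ssrp1, a subunit of the FACT complex, had log2 ratios of 1.69 and 1.87. Daxx, which loads the replacement variant H3.3, had the lowest response, with 0.10 and 0.68.

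Replacement histone genes are made outside S phase as well. Of the 9 that passed the filter out of 11 listed, 4 were at least 2-fold higher in ΔleftPAL and 3 in ΔIRIS cells, against 20.1% and 21.6% of all genes tested. H3f3a and H3f3b, which encode H3.3, had log2 ratios of -0.57 and -0.19 in ΔleftPAL and of -0.64 and -0.57 in ΔIRIS cells. H2afx, the H2A variant phosphorylated at DNA breaks, went from 34.3 to 356 CPM and from 32.6 to 258 CPM. H2afz went from 61.3 to 344 CPM and from 68.9 to 368 CPM. H1f0 had log2 ratios of 2.43 and 1.67.

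S phase genes other than histones were at least 2-fold higher in 19 of 20 in each genotype, against 20.1% and 21.6% of all genes tested. Their medians were 2.82 in ΔleftPAL and 2.78 in ΔIRIS cells, beside histone medians of 2.52 and 2.79. The S phase median was thus above the histone median in ΔleftPAL cells and close to it in ΔIRIS cells. Pcna, the replication clamp, was at 139 and 492 CPM in ΔleftPAL and at 164 and 520 CPM in ΔIRIS cells, and Rrm2, a ribonucleotide reductase subunit, at 16 and 290 CPM and at 23.6 and 309 CPM. Cdt1, which licenses origins, was the exception, with log2 ratios of -0.24 and -0.66. RNAs other than histone mRNAs that lack a poly(A) tail had no gene at least 2-fold higher, with medians of -0.69 and -0.46 over the 4 that passed the filter. Between genotypes after LPS, all 18 genes of 3′ end processing and all 16 chaperones were higher in ΔIRIS cells, against 6191 of 11286 genes tested. Their medians were 0.16 and 0.15, while the median of all genes tested was 0.026.

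**Figure D5:**
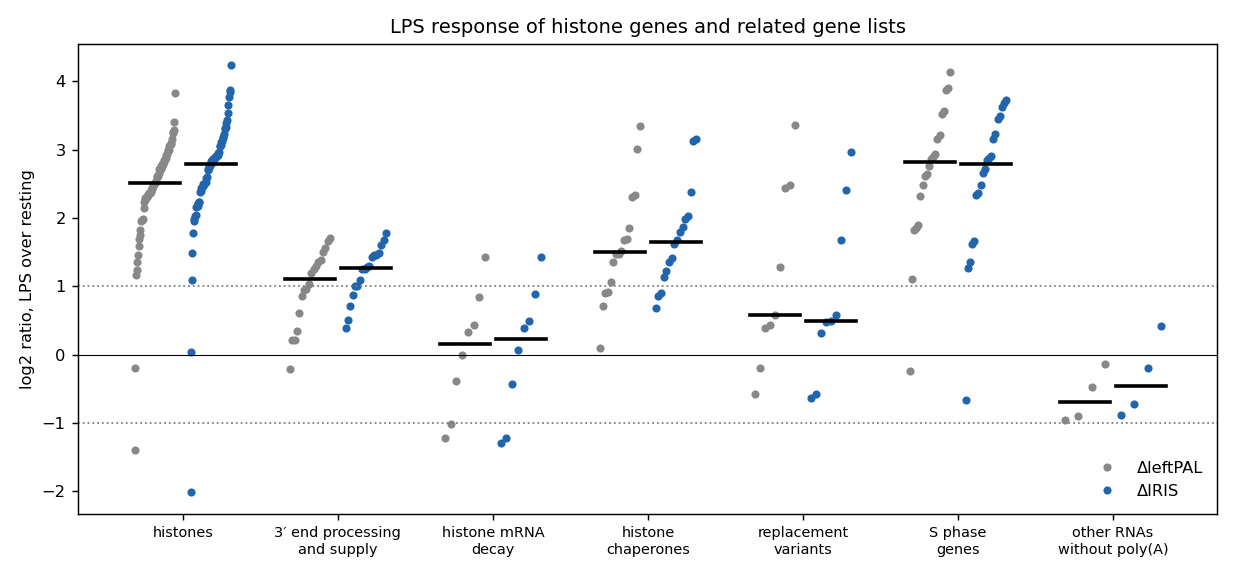
Log2(CPM + 0.5) ratio after LPS over rest for the histone members and the kept genes of 6 related lists, in ΔleftPAL (grey) and ΔIRIS (blue) cells. Each point is a gene, black bars are medians and dotted lines mark 2-fold; histone and S phase genes have the highest medians, and the other RNAs without a poly(A) tail lie below 0 in ΔleftPAL cells.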

How the data were processed

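RNA of each library was depleted of ribosomal RNA and sequenced with the TruSeq Stranded Total RNA kit as paired reads of 150 nt, so mRNAs without a poly(A) tail were kept. The deposited gene counts were made by the authors with STAR 2.4.0a on mm10 and featureCounts of Subread 1.4.6-p1 with Ensembl 77 gene names, counting primary alignments of multi-mapped fragments, so reads of near-identical copies cannot be assigned firmly. Fragments were counted by strand (setting 1), an unusual setting for this kit. The median ratio of gene count to kallisto estimate was 0.987 to 0.989 per library over genes with at least 50 estimated fragments, so the counts follow the annotated transcripts. The deposited kallisto 0.42.3 files hold the authors' estimated counts and TPM per transcript, which were summed per gene and rounded (index and settings are not given in the sources used here). A row without a gene name, 0.00876% to 0.0264% of counts, was left out. CPM used TMM effective library sizes (edgeR 4.0.16, R 4.3.3, Python 3.11.15). Genes whose mean count reached 50 were called at 2-fold on log2(CPM + 0.5). No test was run, since each group has 1 library. The calling rule and intervals were tested on simulated data. Members and lists were chosen with earlier results of these data known. Genes named are, per family, those with the most reads and the highest and lowest LPS response, those furthest apart between genotypes and the testis-specific ones, and per list the same by reads and response; others are named as chosen later or as list members. One gene of the erythroid marker list is not reported here and is left out of its sums. Promoters are from RefSeq and stem-loops from GENCODE M21. Alternatives were other scalings, filters, priors, a 4-fold threshold and kallisto estimates.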

Additional observations from a re-analysis of the deposited data

Results flagged for a closer look

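In 13 members, 9 of 13 H4 genes and 4 of 18 H2B genes, levels in ΔIRIS cells relative to ΔleftPAL cells had a log2 ratio below 0 at rest and above 0 after LPS, with both counting intervals off 0. No member had the opposite pattern. Over all genes tested the shares were 5.43% and 5.18%. The difference between the states was not tested, since each value compares 1 library with 1 library. Among H2B genes the values at rest and after LPS were -0.53 and 0.092 for Hist1h2be, -0.28 and 0.067 for Hist1h2bh, -0.49 and 0.20 for Hist1h2bj, and -0.47 and 0.16 for Hist1h2bk. Among H4 genes they were -0.49 and 0.14 for Hist1h4c, -0.52 and 0.13 for Hist1h4d, -0.35 and 0.047 for Hist1h4f, -0.72 and 0.058 for Hist1h4h, -0.74 and 0.62 for Hist1h4j, -0.25 and 0.65 for Hist1h4m, -0.62 and 0.20 for Hist1h4n, -0.47 and 0.35 for Hist2h4, and -0.45 and 0.51 for Hist4h4. With kallisto estimates, Hist1h2bj and Hist1h4n were not below 0 at rest, at 0.11 and 0.02, and Hist1h4m had at most 7 fragments in any library, too few for a comparison.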

How the results depend on the processing

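No paired analysis was possible because each group has 1 library, and for the same reason no replicate could be left out. Other scalings (total counts, DESeq2 1.42.0 size factors, TMM without immunoglobulin genes or without the members) kept the direction of the summed member ratios. Under them each count of members at least 2-fold apart stayed within 1.5 times. Counts that rest on intervals were not rerun under other scalings. Kallisto estimates turned the summed difference between genotypes after LPS to 0.23 and gave -0.20 at rest. They gave 0 members lower after LPS in each genotype, 1 (Hist1h4i, without Hist1h2br) lower in ΔIRIS cells at rest, and 5 higher and 4 lower after LPS; the cause was not tested. They also turned Hist3h2a after LPS to 1.75 in ΔleftPAL and 1.52 in ΔIRIS cells, Hist1h2bj between resting genotypes to 0.11, and, between genotypes after LPS, Hist1h1c to 0.27, Hist2h2aa1 to 0.080, Hist2h2bb to 0.16, Hist1h3g to 0.0083, Hist1h4k to 0.14, Hist1h4b to 0.98, Hist1h2br to 0.56 and Hist1h2aj to 0.37, the last from 3 and 4 fragments, too few to give a direction. For Hist1h2aj and Hist1h4m, 0 kallisto fragments in resting ΔIRIS cells left no ratio. The difference in LPS response with kallisto was 0.17 for H1, 0.24 for H2A, 0.63 for H2B, 0.21 for H3 and 0.76 for H4. After LPS, 1 member was at least 2-fold lower in ΔIRIS cells with a mean of at least 200 counts, with the filter on resting libraries, or with a prior of 5 CPM. That prior left 0 members lower after LPS in ΔleftPAL cells and 0 lower in ΔIRIS cells at rest, and a 4-fold threshold left 0 lower for these and for the genotypes after LPS. The counts of members higher after LPS stayed within 1.5 times of 63 in all of these.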

Other observations

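All 6 measured plasma cell markers were lower in ΔIRIS than in ΔleftPAL cells after LPS, against 5044 of 11286 genes tested. Their median log2(CPM + 0.5) ratio was -0.50, beside 0.026 for all genes tested. Among them were Prdm1, at 76.0 CPM in ΔleftPAL and 43.9 CPM in ΔIRIS cells, and Xbp1, at 389 and 260 CPM. At rest 4 of these markers were higher and 2 lower, with a median of 0.27, beside 5648 higher and 5637 lower of 11286 genes tested. Irf4 was at least 2-fold higher at rest, at 1.08, against 1.83% of all genes tested. After LPS the H4 sum had a log2 ratio of 0.11 and the H2A sum of -0.28. With kallisto estimates these sums had log2 ratios of 0.43 and 0.016, so the direction for H2A depended on the counting.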
